A study of Homo sapiens with 27 samples.

Results

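The HOX cluster genes are described here in RNA-sequencing data from 2 invasive lobular breast carcinoma (ILC) cell lines and their long-term estrogen-deprived (LTED) variants. Members were taken by symbol. They are the protein-coding genes named HOXA, HOXB, HOXC or HOXD with a number, and the antisense genes named HOXA-AS to HOXD-AS. This gave 49 of the 60619 genes of the deposited table, of which 39 were protein-coding and 10 antisense. The HOXA cluster on chromosome 7 held 13 members, the HOXB cluster on chromosome 17 held 14, the HOXC cluster on chromosome 12 held 12 and the HOXD cluster on chromosome 2 held 10.

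HOX genes encode homeodomain transcription factors that give cells their position along the body axis in the embryo. They sit in tight clusters in which the order of the genes follows the order of the body regions they pattern, with low-numbered (anterior) genes at one end and high-numbered (posterior) genes at the other. Polycomb complexes keep the clusters silent, trithorax proteins keep them active, and retinoic acid opens them from the anterior end. HOX proteins bind DNA together with PBX and MEIS proteins, and the combination of HOX genes a cell expresses is usually inherited through divisions, also in breast epithelium and breast cancer cells.

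The ILC lines MDA-MB-134VI (MM134) and SUM44PE (SUM44) both express the estrogen receptor. SUM44F cells were derived from SUM44PE by culture for months in another medium with fetal bovine serum, and served as the parental cells of the SUM44 LTED variants. MM134 LTED variants A, B, D and E and SUM44 LTED-A and LTED-B were each derived once, by months of growth in medium with charcoal-stripped serum, while MM134, SUM44PE and SUM44F parental cells were only hormone-deprived for 3 days before collection. Each of the 9 groups had 3 libraries from separate wells, so p-values measure the spread between wells of 1 culture and not between derivations. Bulk RNA cannot tell fewer expressing cells from less RNA per cell.

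Library totals ranged from 28583554 to 134882175 estimated counts. The counts of SUM44 LTED-A replicates 2 and 3 were no further apart than sampling noise, and the pair entered as 1 sample, shown as replicate 2, which left 26 samples. All 7 luminal and lobular markers (ESR1, GATA3, FOXA1, KRT8, KRT18, EPCAM and CDH1) were above 3 counts in every group, including CDH1 (E-cadherin), the gene whose loss is common in ILC. SUM44F replicate 1 stood apart in stromal markers. Its COL3A1 level, a fibroblast collagen, was 134.5 CPM (normalised read count scaled to library size) against 0.703 and 0.467 in the other SUM44F libraries, and PTPRC, the pan-leukocyte marker, was 2.60 against 0.332 and 0.423. COL3A1 also stood apart in MM134 parental replicate 3 at 5.54 CPM, against 0.114 and 0.0539, and in MM134 LTED-D replicate 2 at 5.22 CPM, against 0.0968 and 0.0232. The tests of HOX members were refitted without each of these libraries, and a call that this ended or added is given beside the result.

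Promoter sequences are shown for 5 members whose values are described in what follows, chosen from those with an entry in the RefSeq promoter table (GRCh38.p14). The table held windows from 250 bases before to 50 bases after the start for 27 members. CpG dinucleotides, the sites of DNA methylation, are in capitals. The order is HOXD8 (chr2:176129455-176129754, + strand), HOXD12 (chr2:176099545-176099844, + strand), HOXD1 (chr2:176188418-176188717, + strand), HOXC4 (chr12:54016638-54016937, + strand, the same window as HOXC5) and HOXB-AS3 (chr17:48595708-48596007, + strand).

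HOXD8: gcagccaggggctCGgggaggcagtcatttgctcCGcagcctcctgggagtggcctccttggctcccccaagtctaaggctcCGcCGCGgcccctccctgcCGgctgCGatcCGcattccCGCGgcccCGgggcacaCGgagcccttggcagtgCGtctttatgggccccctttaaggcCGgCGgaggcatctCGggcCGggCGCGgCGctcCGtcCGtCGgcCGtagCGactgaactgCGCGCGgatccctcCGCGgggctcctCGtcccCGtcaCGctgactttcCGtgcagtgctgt

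HOXD12: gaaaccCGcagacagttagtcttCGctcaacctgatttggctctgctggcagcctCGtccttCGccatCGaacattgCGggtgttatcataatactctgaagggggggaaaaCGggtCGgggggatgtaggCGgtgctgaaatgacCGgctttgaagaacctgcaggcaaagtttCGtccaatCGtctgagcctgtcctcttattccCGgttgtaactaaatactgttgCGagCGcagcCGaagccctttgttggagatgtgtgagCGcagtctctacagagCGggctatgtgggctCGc

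HOXD1: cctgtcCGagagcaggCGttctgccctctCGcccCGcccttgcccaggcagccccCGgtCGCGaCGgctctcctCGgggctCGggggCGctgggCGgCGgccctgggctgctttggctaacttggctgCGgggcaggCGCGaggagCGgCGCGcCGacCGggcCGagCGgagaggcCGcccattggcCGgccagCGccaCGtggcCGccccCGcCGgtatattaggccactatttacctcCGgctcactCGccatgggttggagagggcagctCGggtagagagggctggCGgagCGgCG

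HOXC4: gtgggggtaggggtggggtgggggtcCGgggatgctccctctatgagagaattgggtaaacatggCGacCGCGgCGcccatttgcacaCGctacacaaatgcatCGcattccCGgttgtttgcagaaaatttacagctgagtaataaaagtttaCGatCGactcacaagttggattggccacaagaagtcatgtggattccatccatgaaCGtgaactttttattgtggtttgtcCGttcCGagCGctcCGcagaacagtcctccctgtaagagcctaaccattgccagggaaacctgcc

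HOXB-AS3: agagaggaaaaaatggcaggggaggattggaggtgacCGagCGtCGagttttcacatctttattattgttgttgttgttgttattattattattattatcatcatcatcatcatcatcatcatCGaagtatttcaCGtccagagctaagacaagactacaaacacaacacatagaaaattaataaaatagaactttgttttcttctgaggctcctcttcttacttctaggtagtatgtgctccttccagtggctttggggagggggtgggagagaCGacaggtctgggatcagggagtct

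The HOXD8 window held 34 CpGs, more than 84.4% of the 35116 windows of all genes, and the HOXD1 window 36, more than 87.3%. HOXD12 held 19, HOXC4 held 15 and HOXB-AS3 held 6, against a median of 14 over all windows. The estrogen response element half-site AGGTCA, searched on both strands, matched 0 of the 35 member windows and 13.8% of all windows. The HOX-PBX site TGATNNAT matched 4 member windows, in HOXD11, HOXA2, HOXA-AS3 and HOXB1, and 7.4% of all windows. The TATA box TATAAA matched 6 member windows and 11.5% of all windows. None of these motifs matched the sequences shown, and none is nested in another. The matches are letters in a window and were not tested for binding.

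The parental lines used different parts of the HOX repertoire. MM134 transcribed HOXC and HOXD genes, with HOXC9, HOXD8, HOXC13, HOXC6 and HOXC4 as the members at 1 CPM or more, whereas SUM44F transcribed HOXB and HOXC genes, led by HOXC10 and HOXB7. Summed over members, the HOXB cluster reached 37.1 ± 1.56 CPM (SD, n = 3) in SUM44F and 0.346 ± 0.105 in MM134 parental cells. The HOXC cluster summed to 75.3 ± 7.67 CPM in SUM44F and 15.1 ± 0.756 in MM134. The HOXD cluster ran the other way, at 1.54 ± 0.429 in SUM44F and 10.3 ± 0.493 in MM134. The SUM44F value holds 2.04 CPM in replicate 1, against 1.29 and 1.30 in the other libraries. Of the HOX total, HOXB made up 32.3% in SUM44F and 1.32% in MM134, and HOXD 1.34% and 39.5%.

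**Figure D1:**
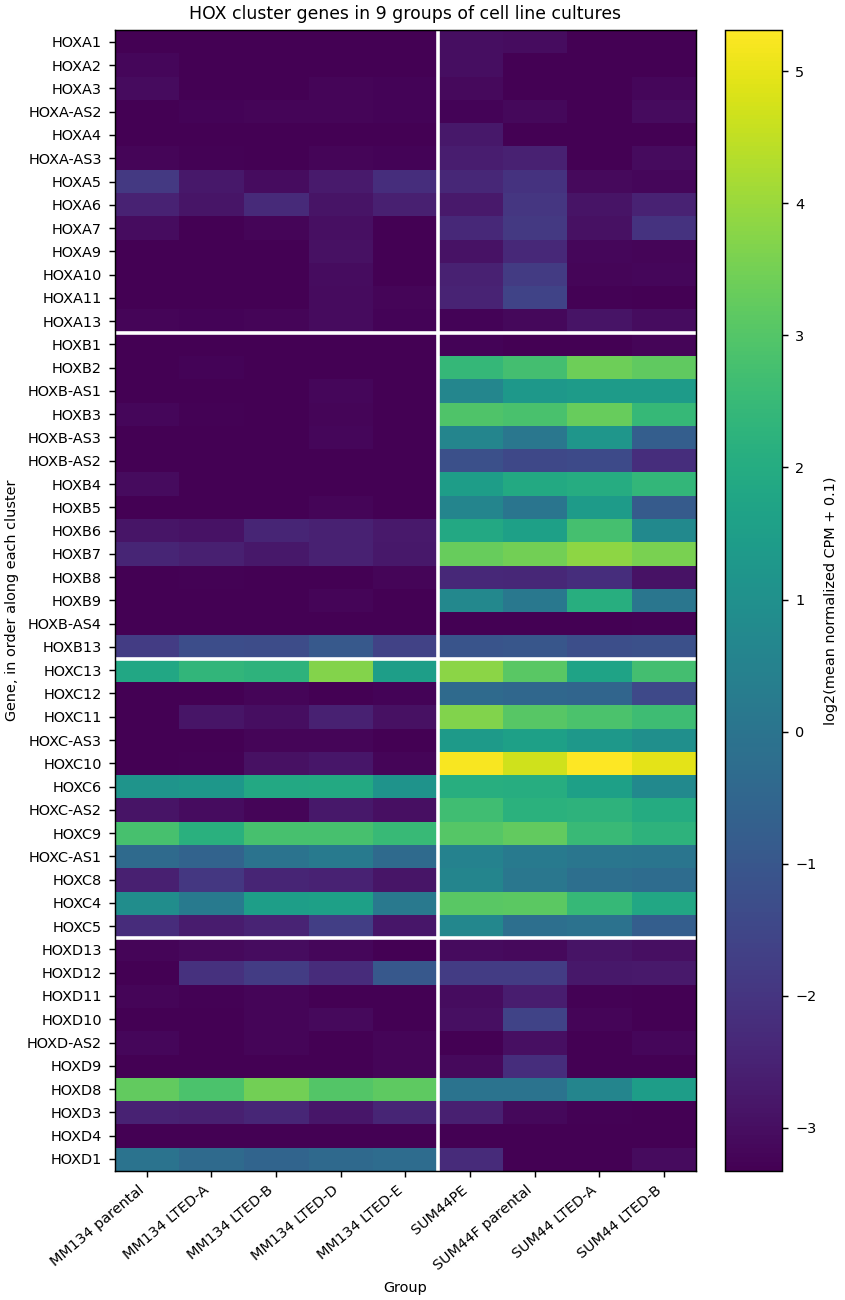
Mean level of the 49 HOX cluster genes, as log2(CPM + 0.1) in colour, in the 9 groups (columns), with genes in order along each cluster (rows) and white lines between clusters and cell lines. The HOXB block is bright in the SUM44 columns only, and HOXD8 and HOXD1 are brighter in the MM134 columns.

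The HOXA cluster, whose posterior members pattern limbs and the reproductive tract, was almost silent in both lines. Its highest count for any gene in any library was 10 in MM134 and 22 in SUM44, and no HOXA member averaged 1 CPM in a group. HOXA5 had the highest level per kb of exon in MM134 parental cells, at 0.1 CPM per kb, and HOXA6 in SUM44F, at 0.124. HOXA5 was at 0.0572, 0.135 and 0.324 CPM in MM134 parental cells and 0.238, 0.137 and 0.0445 in SUM44F, so the groups overlapped. Without MM134 parental replicate 3 the HOXA5 level was 0.0558 CPM per kb, next to 0.0537 for HOXA6, and without SUM44F replicate 1 the HOXA6 level in SUM44F was 0.0845. In SUM44F, replicate 1 alone held most HOXA signal, with a cluster sum of 2.25 CPM against 0.469 and 0.601 in the others. It had 22 counts of HOXA10, 13 of HOXA9 and 10 of HOXA-AS3, where the other SUM44F libraries had at most 3, 1 and 0. HOXD10 (30 counts, at most 2 elsewhere) and HOXD9 (16 counts, at most 1) did the same. These genes moved with the stromal markers of that library, and the part of other cells in them was not tested. None of these 5 was tested between groups.

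In all, 22 members were too low for a test in any comparison: 12 HOXA, 3 HOXB (HOXB1, HOXB8 and HOXB-AS4) and 7 HOXD members. A limit of 3 counts in a library corresponds to 0.0472 to 0.0879 CPM depending on the group. HOXD4 had 0 counts in all 26 samples. In the 15 MM134 libraries, 32 members never exceeded 3 counts, among them 11 of the 14 HOXB members and HOXC10, HOXC11, HOXC12 and HOXC-AS3. In SUM44, 8 members never exceeded 3 counts.

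HOXC10, a posterior gene active in hindlimb and lumbar spinal cord, was the highest member per kb in every SUM44 group. It measured 26.4, 29.1 and 20.8 CPM in SUM44F and 35.5, 37.9 and 37.7 in SUM44PE, and had 0 counts in all 3 MM134 parental libraries. Its level was therefore at least 289-fold lower in MM134 parental cells than in SUM44F, taking 3 counts per library as the limit. Across all MM134 libraries its highest count was 2. HOXC11, its neighbour, averaged 8.32 CPM in SUM44F and was at least 94.7-fold lower in MM134, again with 0 counts.

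HOXB7, which has been linked to proliferation of breast epithelial cells, was the highest HOXB member per kb in all SUM44 groups. It measured 11.4, 10.7 and 10.8 CPM in SUM44F and 0.0857, 0.135 and 0.0324 in MM134 parental cells. The groups did not overlap, and the log2 fold change of MM134 against SUM44F was -6.93 (SE 0.264, edgeR adjusted p = 2.69e-17). HOXB2, which patterns the hindbrain, was at 6.37, 6.83 and 6.42 CPM in SUM44F with 0 counts in MM134, at least 74.4-fold lower. HOXB3 held 1 count over the MM134 parental libraries, a ratio of 719 with a 95% counting interval of 129 to 28430. HOXB13, at the far end of the cluster and a prostate lineage gene, was the exception in HOXB. It was the highest HOXB member per kb in all MM134 groups, at 0.229, 0.0539 and 0.291 CPM in parental cells, and at 0.347, 0.39 and 0.456 in SUM44F. Without MM134 parental replicate 3, HOXB7 came before it there, at 0.0726 against 0.0465 CPM per kb. This difference was not called (log2 fold change -1.10, adjusted p = 0.0335).

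HOXD8 was the main HOXD gene of both lines. It measured 9.69, 9.41 and 8.78 CPM in MM134 parental cells and 0.716, 0.898 and 1.01 in SUM44F. MM134 was 10.6-fold higher by the ratio of means (log2 fold change 3.38, SE 0.118, adjusted p = 4.81e-18). HOXD1, the most anterior HOXD member, was at 0.857, 0.89 and 0.907 CPM in MM134 parental cells with 0 counts in SUM44F, at least 16.9-fold higher. Of the exon bases of HOXD1, 60.1% overlap a gene on the opposite strand, and whether reads were assigned by strand is not given in the sources used here, so its value is uncertain to that extent.

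In the joint fit of both lines, 27 members were tested and 23 were called between MM134 parental and SUM44F, at an adjusted p under 0.001 and a fold over 1.5. Of these, 2 (HOXD8 and HOXD1) were higher in MM134, where 19.1% of all 29608 genes were, and 21 were lower, where 19% of all genes were. HOXD1 had 0 counts in every SUM44F library, so that it entered the test through MM134 and could only be higher. For 16 of the 21, every MM134 parental library had at most 3 counts, so that they entered the test through SUM44 and could only be lower. The other 5 were HOXB7, HOXC13, HOXC6, HOXC4 and HOXC5. The call of HOXB-AS2 was lost without SUM44F replicate 1 and without MM134 parental replicate 3, and HOXC9 was called lower in MM134 without the latter. The median log2 fold change was -6.70 over the tested members, -3.37 with genes at 0 counts set to their limit, and -0.08 over all genes.

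**Figure D2:**
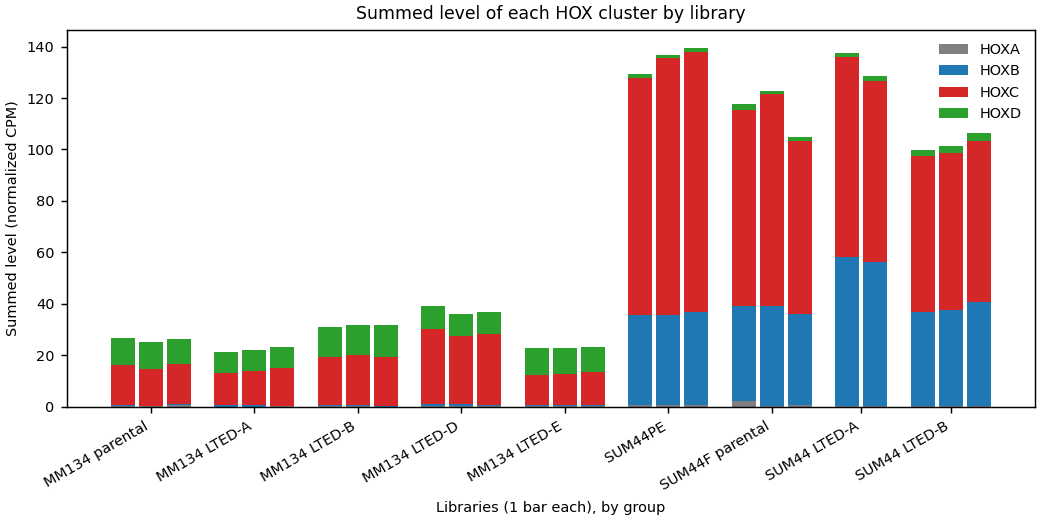
Summed level in CPM of the members of each HOX cluster (stacked colours) in each of 26 samples, 1 bar each. HOXB adds 35.5 to 38.6 CPM in SUM44F libraries and under 1 CPM in all MM134 libraries, and HOXD is the second block in MM134.

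HOXC13, the most posterior HOXC gene and a regulator of keratins in hair and nail, was expressed in both lines. HOXC9, HOXC6 and HOXC4 were also shared. HOXC13 measured 4.32, 2.72 and 3.50 CPM in MM134 parental cells and 8.72, 9.37 and 7.53 in SUM44F (log2 fold change -1.28, SE 0.127, adjusted p = 3.01e-09). HOXC4 measured 1.74, 1.995 and 1.62 in MM134 and 8.74, 9.41 and 8.20 in SUM44F (-2.29, SE 0.143, adjusted p = 4.93e-13). For both genes, every MM134 library was below every SUM44F library. HOXC9 measured 6.32, 6.31 and 7.71 CPM in MM134 and 9.06, 9.72 and 9.39 in SUM44F. Its groups did not overlap, but its log2 fold change of -0.47 was below the fold limit. HOXC6, HOXC4 and HOXC5 share 16.1%, 17.5% and 67.3% of their exon bases with another gene on the same strand, so reads can be split between them in the estimated counts.

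Among the MM134 LTED variants, HOXC genes moved in different directions in different variants. HOXC13 and HOXC6 were higher in LTED-D, HOXC6 was higher in LTED-B, HOXC9 and HOXC4 were lower in LTED-A, and HOXC4 was lower in LTED-E but higher in LTED-D. The 4 variants share the MM134 parental libraries. Summed endothelial markers (PECAM1, VWF and CDH5) ran from 1.46 to 2.72 CPM in parental cells. LTED-D libraries held 4.43 to 4.85 CPM and those of LTED-A 4.68 to 5.09. LTED-B libraries held 1.62 to 2.16 CPM and those of LTED-E 2.84 to 3.41. Of the 3 markers, 2 were called higher in LTED-D and 0 lower. In LTED-A and in LTED-E, 1 was called higher and 1 lower, so the sum hides opposite changes. In LTED-B 0 were called. The part of this in the HOX values was not tested. In each variant, 9 members were tested: HOXB13, HOXC13, HOXC6, HOXC9, HOXC-AS1, HOXC4, HOXD12, HOXD8 and HOXD1.

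HOXC13 measured 13.7, 12.5 and 12.6 CPM in LTED-D, and all 3 libraries were above every parental library. The log2 fold change was 1.89 (SE 0.131, adjusted p = 5.27e-10), or 3.68-fold by the ratio of means. It was 1.92 without LTED-D replicate 2 and 1.90 without MM134 parental replicate 3, and was called both times. In LTED-A it measured 4.66, 4.88 and 5.50, in LTED-B 4.15, 5.12 and 4.92, and in LTED-E 3.11, 2.39 and 2.88, none of which was called. HOXC13 thereby overtook HOXC9 as the highest HOXC member per kb in LTED-D, at 5.48 against 4.09 CPM per kb.

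HOXC6, which is active in the developing thorax and mammary gland, measured 2.29, 2.21 and 1.85 CPM in parental cells. It rose to 3.46, 3.38 and 3.90 in LTED-B (log2 fold change 0.76, SE 0.129, adjusted p = 6.97e-05) and to 3.77, 3.45 and 3.95 in LTED-D (0.83, SE 0.130, adjusted p = 2.65e-05). The LTED-D change was 0.88 without LTED-D replicate 2 and 0.75 without MM134 parental replicate 3, and was called both times. In LTED-A (2.23, 2.36 and 2.16) and LTED-E (1.63, 2.33 and 2.23) it overlapped parental cells.

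HOXC4, the most anterior expressed HOXC gene, fell to 1.01, 1.02 and 1.23 CPM in LTED-A (log2 fold change -0.74, SE 0.158, adjusted p = 0.000632) and to 1.01, 1.06 and 1.01 in LTED-E (-0.79, SE 0.166, adjusted p = 0.000537). It rose to 3.36, 2.22 and 3.11 in LTED-D (0.70, SE 0.151, adjusted p = 0.000682), and measured 2.92, 2.86 and 2.44 in LTED-B (0.62, adjusted p = 0.00209, not called). HOXC9 fell to 3.88, 4.14 and 5.08 CPM in LTED-A (-0.65, SE 0.105, adjusted p = 3.45e-05) and lay within the parental range in LTED-B (6.96, 7.01 and 6.71) and LTED-D (7.23, 6.88 and 6.34). Its call in LTED-A was lost without MM134 parental replicate 3, the library with COL3A1, and without LTED-A replicate 1. The HOXC4 call in LTED-D was lost with DESeq2 (0.71 on the log2 scale), and leaving out single libraries ended the HOXC4 calls in 4 to 5 of the 6 omissions per variant, in LTED-D also without MM134 parental replicate 3 (0.64).

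HOXD12, a posterior gene of limb patterning, was called in 3 variants. It had 0 counts in all 3 parental libraries, so that it entered the test through the LTED libraries and could only be higher. It was at 0.14, 0.167 and 0.093 CPM in LTED-A, 0.255, 0.165 and 0.149 in LTED-B, 0.0323, 0.0842 and 0.232 in LTED-D and 0.395, 0.381 and 0.466 in LTED-E. These are 1 to 24 counts per library. Against a limit of 3 counts per parental library the HOXD12 level was higher by at least 1.52-fold in LTED-A, 2.16-fold in LTED-B and 4.71-fold in LTED-E, with adjusted p of 0.000883, 0.000348 and 9.5e-06. In LTED-D (adjusted p = 0.00183) it was not called. The call in LTED-A was lost with DESeq2 and whichever of the 6 libraries was left out, and the call in LTED-B with 4 of the 6 left out in turn, MM134 parental replicate 3 among them.

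HOXD8 measured 7.02, 7.33 and 7.14 CPM in LTED-A, 10.7, 11.1 and 11.4 in LTED-B, 8.36, 7.49 and 7.73 in LTED-D and 9.16, 8.81 and 8.70 in LTED-E. Its largest change against parental cells was -0.38 on the log2 scale in LTED-A (adjusted p = 1.9e-05), below the fold limit. HOXB13 had 2 to 26 counts in MM134 and was not called in any variant. The HOXB genes silent in MM134 parental cells stayed at or under 8 counts in every LTED library, and HOXC10 at or under 2.

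Counted by variant, LTED-A had 1 member higher (10.5% of all 26061 genes were) and 2 lower (9.82% of all). LTED-B had 2 higher (8.11%) and 0 lower (7.75%), LTED-D had 3 higher (9.63%) and 0 lower (7.95%), and LTED-E had 1 higher (8.71%) and 1 lower (10.3%). In at least 3 variants, 1 member was higher (6.66% of all genes) and 0 lower (6.83%), and with DESeq2 0 were higher, since HOXD12 was then not called in LTED-A. The member counted as higher in LTED-A, in LTED-E and in at least 3 variants was HOXD12, whose direction was fixed by its counts of 0 in parental cells, as was that of 1 of the 2 in LTED-B. Where edgeR called 0 lower, in LTED-B and LTED-D, 1 member each was lower at an unadjusted p under 0.05, and DESeq2 called 0. With 9 members tested, 1 member called is a share close to that over all genes. The median log2 fold change of the tested members was -0.31, 0.44, 0.70 and -0.06 in variants A, B, D and E, and 0.62 in LTED-D with HOXD12 at its limit, against medians of -0.01, 0.02, -0.03 and 0.02 over all genes.

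Tested against each other, the MM134 variants differed in 5 of the 9 members, where 19.6% of all genes differed. The fold is that between the highest and the lowest variant. These were HOXC13 (2.21 on the log2 scale, adjusted p = 1.8e-10), HOXC4 (1.49, adjusted p = 2.36e-08), HOXC6 (0.85, adjusted p = 5.28e-06), HOXC9 (0.68, adjusted p = 3.89e-05) and HOXD8 (0.63, adjusted p = 1.45e-07). LTED-D was the highest variant for HOXC13, HOXC6 and HOXC4. LTED-B was the highest for HOXC9 and HOXD8. LTED-A was the lowest for HOXC9 and HOXD8, and LTED-E for HOXC13, HOXC6 and HOXC4.

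**Figure D3:**
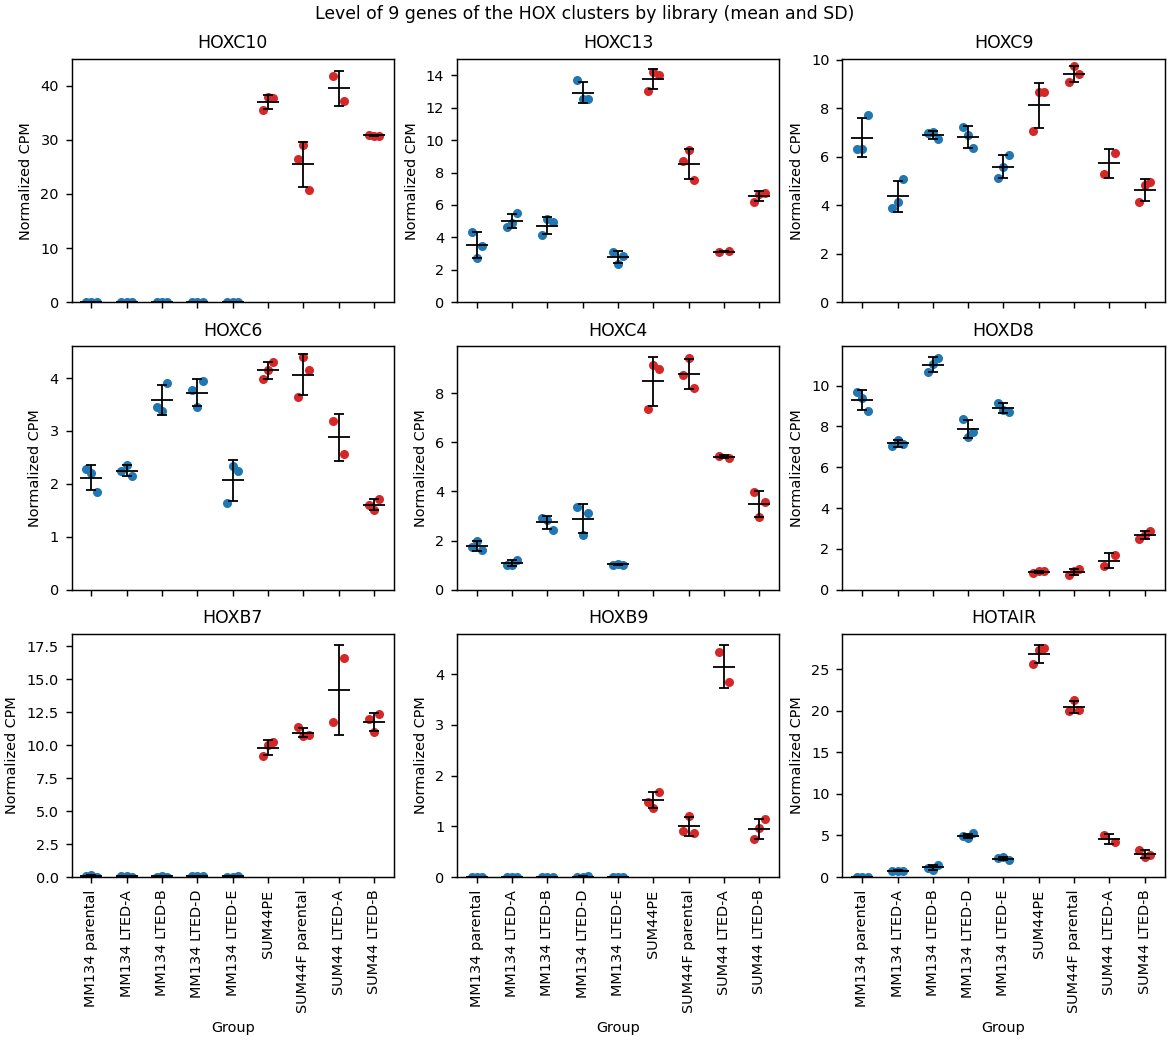
Level in CPM of 8 HOX members and the noncoding gene HOTAIR in each library (points, MM134 blue, SUM44 red), with mean and SD (black), by group. HOXC10, HOXB7 and HOXB9 lie near 0 in all MM134 groups, and HOTAIR rises from MM134 parental cells to each MM134 LTED variant and falls from SUM44F to both SUM44 variants.

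In the SUM44 LTED variants, HOXB5, HOXB6 and HOXB9 rose in LTED-A, and HOXC6, HOXC4 and HOXC9 fell in LTED-B. Both share the SUM44F libraries, and 24 members were tested. The SUM44F libraries also held more of the endothelial markers than the LTED variants, with sums of 25.8 to 40.5 CPM against 2.80 to 3.26 in LTED-A and 3.66 to 4.51 in LTED-B, mostly from PECAM1. In SUM44PE the sums were 10.8 to 11.1. The part of this in the HOX values was not tested.

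In LTED-A, 3 members were higher (6.39% of all 26834 genes were) and 1 was lower (7.28% of all). HOXB9, a posterior gene with a role in mammary development, measured 4.45 and 3.86 CPM in LTED-A against 0.911, 1.21 and 0.879 in SUM44F (log2 fold change 2.06, SE 0.214, adjusted p = 3.1e-05). HOXB6 measured 7.80 and 5.58 against 3.27, 2.62 and 2.80 (1.20, SE 0.187, adjusted p = 0.000527), and HOXB5 3.14 and 2.02 against 0.759, 0.839 and 1.14 (1.47, SE 0.251, adjusted p = 0.00098). HOXB7 (0.38, adjusted p = 0.052) and HOXB13 (-0.39) were not called. All LTED-A samples lay above all SUM44F libraries for these 3 genes. HOXB5, HOXB6 and HOXB9 were named after their values were seen. The HOXB5 call was lost when SUM44F replicate 1 or 2 or either LTED-A sample was left out, and the HOXB6 call without SUM44F replicate 2 or 3 or LTED-A replicate 1. HOXB9 kept its call with each of the 5 samples left out.

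HOXC13 fell in LTED-A, with 3.11 and 3.14 CPM against 8.72, 9.37 and 7.53 in SUM44F (log2 fold change -1.45, SE 0.135, adjusted p = 1.34e-05). HOXB2 was at 9.53 and 11.2 CPM (0.67, adjusted p = 0.00177) and HOXC10 at 41.8 and 37.2 CPM (0.64, adjusted p = 0.00202). Neither was called, though both lay above all SUM44F libraries. With 2 samples against 3 such a separation is weak, and it also held for HOXB3, HOXB7, HOXB-AS3 and HOXD8, which were not called. HOXC4, HOXC6, HOXC9 and HOXC-AS1 lay below all SUM44F libraries and were not called either. The share of all genes separated in this way is not given here.

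In LTED-B, 1 member was higher (8.69% of all genes) and 3 were lower (8.57%). HOXC6 measured 1.59, 1.51 and 1.71 CPM against 3.64, 4.39 and 4.16 in SUM44F (log2 fold change -1.34, SE 0.151, adjusted p = 4.23e-05). HOXC4 measured 3.97, 2.94 and 3.58 against 8.74, 9.41 and 8.20 (-1.33, SE 0.131, adjusted p = 1.58e-05), and HOXC9 4.12, 4.82 and 4.98 against 9.06, 9.72 and 9.39 (-1.01, SE 0.117, adjusted p = 4.82e-05). HOXD8 rose to 2.47, 2.69 and 2.89 CPM from 0.716, 0.898 and 1.01 (1.60, SE 0.201, adjusted p = 8.84e-05). None of these groups overlapped, and all 4 calls held without any single library. In LTED-A the same genes were at -0.51, -0.70, -0.71 and 0.71 on the log2 scale and were not called.

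By edgeR, 0 members were called in both SUM44 variants, either higher (3.87% of all genes) or lower (4.75%). At an unadjusted p under 0.05, 3 were higher and 4 lower in both, and DESeq2 called 0 higher and 2 lower in both. Of the 12 HOXC members, 10 had a negative log2 fold change in LTED-A and 11 in LTED-B. Only 1 was called lower in LTED-A (7.28% of all genes) and 3 in LTED-B (8.57%). The cluster medians were -0.27 and -0.54, against -0.06 and -0.09 over all genes. The medians over all genes were thus also below 0, and the share of all genes with a negative change is not given here. HOXC6, HOXC4 and HOXC5 can share reads, so the 12 are not independent. The 11 tested HOXB members had medians of 0.48 and -0.31.

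**Figure D4:**
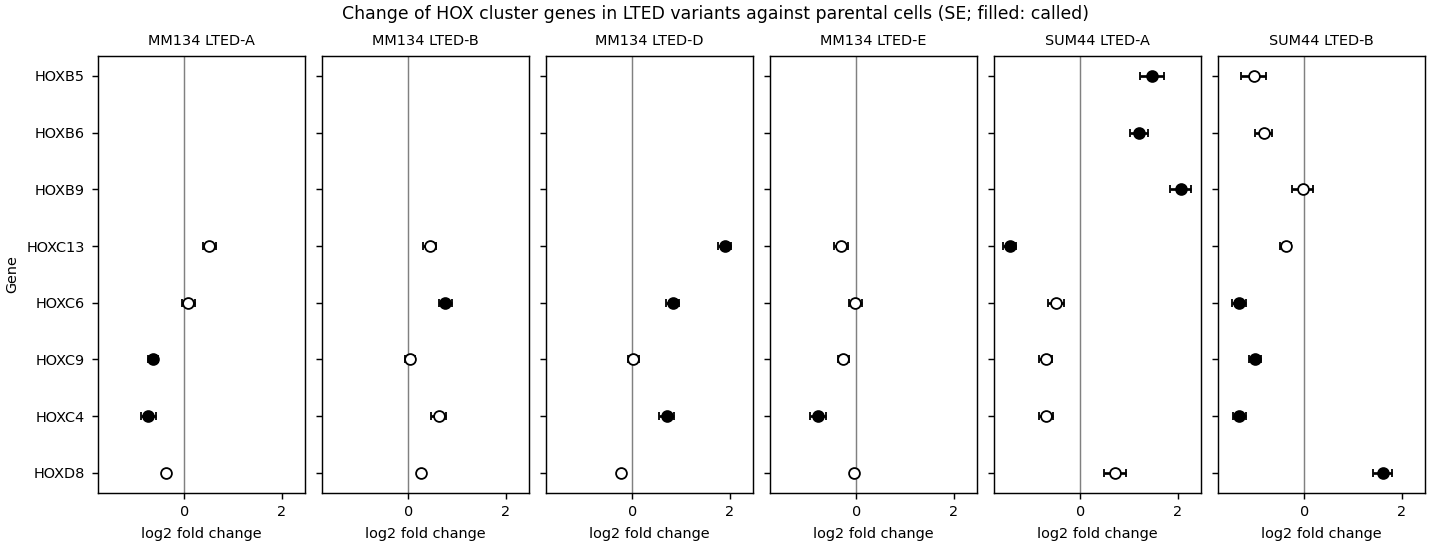
Log2 fold change against parental cells (x axis) of the 8 members called in at least 1 LTED variant, other than HOXD12, in 6 panels with SE bars, filled where called. HOXC4 lies on both sides of 0 among MM134 variants, and HOXB5, HOXB6 and HOXB9 are filled in SUM44 LTED-A only.

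Compared directly, SUM44 LTED-A was higher than LTED-B in 5 members (3.56% of all genes), all HOXB, and lower in 1 (3.86%). The 5 were HOXB5 (log2 fold change 2.51, SE 0.269, adjusted p = 7.27e-05), HOXB-AS3 (2.11, adjusted p = 0.000237), HOXB9 (2.09, adjusted p = 5.74e-05), HOXB6 (2.04, adjusted p = 3.03e-05) and HOXB3 (0.86, adjusted p = 0.000759). HOXC13 was lower in LTED-A (-1.07, adjusted p = 0.00021). HOXB-AS3, whose promoter is printed with the other sequences, spans HOXB4, HOXB5, HOXB6 and most of HOXB3 on the opposite strand. It shares 30.1% of its exon bases with genes on the opposite strand. HOXB6 shares 16.6% with other genes on the same strand and 16.3% with genes on the opposite strand. For HOXB3 these shares are 6.42% and 5.29%. Reads can thus be split between overlapping genes, and the 5 are not fully independent. HOXB2, HOXB4 and HOXB7 were not called in this comparison (0.19, -0.41 and 0.27). The calls of HOXB3 and HOXC13 were lost whichever of the 5 samples was left out, that of HOXB-AS3 with 4 of the 5 and that of HOXB9 without LTED-A replicate 1. HOXB5 and HOXB6 kept theirs. These genes too were named after their values were seen.

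SUM44PE and SUM44F, the same line with different culture history, differed in 1 of 25 tested members, which was higher in SUM44PE (2.85% of all 27457 genes), with 0 lower (2.72%). At an unadjusted p under 0.05, 3 members were lower, and DESeq2 called 0. The member called by edgeR was HOXC13, at 13.0, 14.2 and 14.0 CPM in SUM44PE against 8.72, 9.37 and 7.53 (log2 fold change 0.68, SE 0.098, adjusted p = 0.000228). Leaving out SUM44PE replicate 2 or 3 ended the call.

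The change in MM134 variants was then tested against that in SUM44 variants, as the mean log2 fold change of the 4 minus that of the 2. It differed in 6 of 27 members, with 5 higher in MM134 (10.9% of all genes) and 1 lower (10.1%). The 5 were HOXC13 (1.53, SE 0.152, adjusted p = 6.12e-09), HOXC6 (1.33, adjusted p = 9.05e-08), HOXC4 (0.96, adjusted p = 4.19e-05), HOXC9 (0.64, adjusted p = 0.000281) and HOXD12. HOXD8 was lower (-1.27, adjusted p = 2.75e-08). The fitted SE was 238 to 3430 for HOXB2, HOXB5, HOXB9, HOXB-AS1, HOXB-AS2, HOXB-AS3, HOXC12, HOXC-AS3 and HOXD1. These are among the 27 but had 0 counts in the parental libraries of 1 line. They could not be called, and that says nothing about a difference. HOXC9 was not called with RLE scaling or DESeq2 (0.59 and 0.58), nor with 5 of the 23 libraries left out in turn. In MM134 variants A, B, D and E, HOXC4 changed by -0.74, 0.62, 0.70 and -0.79 and HOXC9 by -0.65, 0.03, 0.02 and -0.26. In SUM44 LTED-A and LTED-B, HOXC4 changed by -0.70 and -1.33 and HOXC9 by -0.71 and -1.01. For these genes a difference above 0 is thus no rise in every MM134 variant. HOXD12 had no counts in MM134 parental cells, so that its MM134 change could only be upward, its fitted difference has no meaning as a size, and its place among the 5 cannot be read against the share of all genes. In SUM44 its mean was 0.192 CPM in SUM44F and 0.0474 and 0.0501 in the variants, with at most 16, 8 and 6 counts in a library, and it was not tested there.

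HOTAIR, a noncoding RNA transcribed from the HOXC cluster between HOXC11 and HOXC12 on the opposite strand (chromosome 12), is known to interact with Polycomb complexes. It is not a member by symbol and belongs to a list of 8 other noncoding genes of the clusters. It had 1 to 2 counts in MM134 parental libraries (0.0572, 0.027 and 0.0324 CPM) and rose to 0.792, 0.742 and 0.688 in LTED-A, 1.14, 0.873 and 1.49 in LTED-B, 4.91, 4.74 and 5.25 in LTED-D and 2.25, 2.39 and 2.02 in LTED-E. The ratios were 19.4 (95% counting interval 7.41 to 71.9), 29.9 (11.4 to 111), 128 (49.8 to 473) and 56.9 (22.0 to 210), with adjusted p from 1.44e-13 to 9.01e-09. In SUM44 it ran the other way, from 19.99, 21.3 and 20.1 CPM in SUM44F to 5.04 and 4.18 in LTED-A (log2 fold change -2.16, SE 0.149, adjusted p = 1.53e-06) and 3.28, 2.37 and 2.70 in LTED-B (-2.89, SE 0.134, adjusted p = 6.27e-08). The difference between the lines was called (adjusted p = 5.32e-18). With 1 to 2 counts in the MM134 parental libraries, the MM134 part of it could only be upward, and its size is uncertain.

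HOXC13-AS, antisense to HOXC13, rose in MM134 LTED-D and fell in both SUM44 variants. It measured 0.484, 0.281 and 0.302 CPM in MM134 LTED-D against 0.0286, 0.027 and 0.0648 in parental cells, a ratio of 8.92 (95% counting interval 3.21 to 34.4, adjusted p = 4.95e-05). It fell in SUM44 LTED-A (log2 fold change -2.62, adjusted p = 7.4e-06) and LTED-B (-1.36, adjusted p = 0.000142). HAGLR, antisense in the HOXD cluster, measured 12.3, 10.9 and 8.55 CPM in MM134 parental cells and 0.0867, 0.0781 and 0.122 in SUM44F, and was not called in any MM134 variant. In SUM44PE it was at 0.542, 0.802 and 0.756 CPM, above SUM44F (log2 fold change 2.79, SE 0.400, adjusted p = 0.000231). The other genes of this list (HOTTIP, HOTAIRM1, HAGLROS, HOXA10-AS and HOXA11-AS) were not tested. The list had 1, 1, 2 and 1 of 3 tested genes higher in the MM134 variants and 2 of 2 lower in both SUM44 variants. Of all genes, 8.11% to 10.5% were higher in the MM134 variants. In SUM44 LTED-A and LTED-B, 7.28% and 8.57% of all genes were lower. HOTAIR and HOXC13-AS had at most 3 counts in every MM134 parental library, so that in MM134 they could only be called higher.

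Cofactors and regulators of HOX genes are given as counts from fixed lists. Over all genes, 10.5%, 8.11%, 9.63% and 8.71% were higher in MM134 LTED variants A, B, D and E and 9.82%, 7.75%, 7.95% and 10.3% lower. In SUM44 LTED-A and LTED-B, 6.39% and 8.69% were higher and 7.28% and 8.57% lower. For lists of this size, 1 gene called is a share close to these. Of the 9 TALE cofactors, 8 were tested in MM134, and 1 rose in every variant with 2, 2, 2 and 3 lower. In SUM44, all 9 were tested, with 2 higher and 1 lower in each variant. MEIS2 rose in every MM134 variant, from 1.37 ± 0.097 CPM (SD, n = 3) to between 5.33 and 9.14, and fell in both SUM44 variants from 16.3 ± 0.501 to 5.34 and 5.70 (log2 fold change -1.61 and -1.52). MEIS3 fell in all 4 MM134 variants by 1.28 to 2.17 on the log2 scale. PBX3 fell in 3 MM134 variants (-0.71, -0.83 and -0.69 in LTED-A, LTED-B and LTED-E) and rose in both SUM44 variants (1.03 and 1.13). The list's median log2 fold change lay between -0.26 and 0.0039 in all 6 variants.

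Of the 14 Polycomb genes, 1 to 2 were higher and 1 to 3 lower in the MM134 variants, and 0 and 4 were higher with 0 and 1 lower in SUM44 LTED-A and LTED-B. BMI1, a core subunit of Polycomb repressive complex 1, fell in every MM134 variant, from 352 CPM to between 46.0 and 64.5 (log2 fold change -2.43 to -2.93). In SUM44 it was at 148 and 116 CPM against 107, and was not called. CBX2, a chromobox subunit of the same complex, rose in all 4 MM134 variants (0.78 to 1.05). Of the 9 trithorax and H3K27 demethylase genes, 0 were called in MM134 variants A, B and D and in SUM44 LTED-A, 1 was lower in MM134 LTED-E and 1 higher in SUM44 LTED-B.

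Of the 13 retinoic acid genes, 9 were tested in MM134, with 1 higher in each variant and 2, 2, 1 and 3 lower. In SUM44, 11 were tested, with 1 and 2 higher in LTED-A and LTED-B and 0 lower. The gene higher in MM134 was ALDH1A3, which makes retinoic acid. It was at 0.0311 CPM in parental cells (3 counts in all), so that it could only be called higher, and at 0.205, 0.232, 1.83 and 1.56 in variants A, B, D and E. The ratios were 6.78 (95% counting interval 2.16 to 34.2), 7.92 (2.45 to 40.6), 62.3 (21.0 to 304) and 53.5 (18.1 to 261). CRABP2, a carrier of retinoic acid, fell in LTED-B, LTED-D and LTED-E (-0.77, -0.78 and -1.48). In SUM44, RARA, a retinoic acid receptor, rose in LTED-A and LTED-B from 19.2 CPM to 53.2 and 33.4. None of the 8 ParaHox and EVX genes was tested in any comparison.

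The 10 nearest tested protein-coding genes around each cluster were compared as neighbours, 5 on each side. Around HOXC, 1 of 10 was lower in every MM134 variant and in both SUM44 variants. That share is close to the 7.28% to 10.3% of all genes that were lower in these comparisons. HOXC neighbours numbered 0, 0, 1 and 0 higher in the MM134 variants and 1 and 0 higher in SUM44 LTED-A and LTED-B. Around HOXB, 3 of 10 were higher and 0 lower in every MM134 variant (medians 0.31 to 0.42). Of all genes, 8.11% to 10.5% were higher there. In SUM44 LTED-A and LTED-B, 0 and 1 HOXB neighbours were higher and 0 lower. HOXA neighbours numbered 1, 1, 3 and 1 higher and 4, 2, 1 and 2 lower in MM134 variants A, B, D and E. In both SUM44 variants 3 HOXA neighbours were lower, with 0 and 1 higher. Around HOXD, 0, 0, 0 and 2 were higher and 3, 2, 1 and 1 lower in the MM134 variants. In SUM44, 1 and 0 HOXD neighbours were lower and 0 higher. In the parental comparison 4 HOXB neighbours were higher in MM134 and 0 were lower, with a median log2 fold change of 0.41. Of all genes, 19.1% were higher and 19% lower in MM134. Around HOXA, 9 of 10 neighbours were lower in MM134 (median -2.17). HOXC neighbours numbered 2 higher and 1 lower, with a median of -0.38. Around HOXD, 2 were higher and 2 lower, with a median of 0.06, where HOXD8 was at 3.38.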

How the data were processed

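Total RNA of 27 libraries in 9 groups was sequenced from stranded total RNA libraries. The authors quantified reads with Salmon (0.6.0) against Ensembl release 82 on hg38 and deposited estimated counts per gene, which were rounded here. Whether counting used strand is not given in the sources used here. Symbols, positions and exon lengths came from GENCODE v44. Library totals ranged from 28583554 to 134882175 (median 44018412), and intervals and limits cover counting error only.

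Genes passing filterByExpr were tested with edgeR (4.0.16, TMM, quasi-likelihood F-test, two-sided), with Benjamini-Hochberg adjustment over all genes tested. A gene was called at a fold over 1.5 and an adjusted p under 0.001. The MM134 groups, the SUM44 groups, the SUM44 groups with SUM44PE, and all groups were fitted separately. Levels are CPM on 1 TMM scale for all groups. DESeq2 (1.42.0), RLE scaling, no filter, other thresholds, a replicate block and leaving out each library were alternatives. The test was checked on simulated counts with changes of 2-fold or more planted in genes over 1 CPM. Smaller changes and lower genes, such as HOXD12, were not covered by that check.

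The members and gene lists were chosen with earlier results of these data known. Values per library are given for members called in 1 direction in 3 or more MM134 variants, in SUM44 LTED-A and LTED-B alike or in the difference between lines, called between the parental lines with a group at 10 CPM or more, or highest per kb in their cluster. List genes are named by the same 2 rules for variants, and others were chosen after their values were seen.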

Additional observations from a re-analysis of the deposited data

Results flagged for a closer look

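The change from hormone-deprived parental cells to LTED variants differed between MM134 and SUM44 for 6 HOX members, by an edgeR test of the difference itself (mean change in the 4 MM134 lines, less the mean change in the 2 SUM44 lines, log2 scale). The differences were 1.53 for HOXC13, 1.33 for HOXC6, 0.96 for HOXC4, 0.64 for HOXC9, 8.05 for HOXD12 and -1.27 for HOXD8. The HOXD12 size is a fitted value against MM134 parental libraries with 0 counts and is no bound, and those counts left it only 1 direction in MM134. HOXC13 had means of 5.02, 4.73, 12.9 and 2.79 CPM in variants A, B, D and E of MM134 against 3.51 in MM134 parental cells. In SUM44 its means were 3.12 CPM in LTED-A and 6.56 in LTED-B against 8.54 in SUM44F. The mean over MM134 variants joins variants that differed among themselves in HOXC13, HOXC6, HOXC4, HOXC9 and HOXD8.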

How the results depend on the processing

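Of 457 values of single members under other settings or with a library left out, 411 kept their direction and side of the threshold, 46 fell below it and 0 reversed. Of 59 calls, 47 held under every setting and 43 with each library left out in turn. The 59 include 23 between the parental lines, so the pooled figures do not describe the LTED calls. In the MM134 variants, calls lost with a library left out included HOXC9 in LTED-A and HOXD12 in LTED-A and LTED-B. The HOXC4 calls in LTED-A, LTED-D and LTED-E were lost as well. Of 81 counts under other settings, 57 stayed within 1.5 times the reported count, as did 65 of 87 with a library left out. The cause of the moves below was not tested, apart from the stricter or looser thresholds themselves.

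With an adjusted p under 0.05, the calls numbered 4 in MM134 LTED-B (2 reported), 6 in LTED-D (3), 10 in SUM44 LTED-A (4), 9 in SUM44 LTED-B (4) and 4 in SUM44PE against SUM44F (1). With a minimum fold of 2, they numbered 1 in each MM134 variant (A 3, B 2, D 3 and E 2 reported), 0 in SUM44PE against SUM44F and 2 among the MM134 variants (5). The 1 member was HOXC13 in LTED-D and HOXD12 in LTED-A, LTED-B and LTED-E. The HOXD12 fold was fitted against 0 parental counts. Its lower limit was 1.52-fold in LTED-A, under the minimum, 2.16-fold in LTED-B and 4.71-fold in LTED-E. In SUM44 LTED-A, DESeq2 called 8, the fit with no filter 7, and the fit with all 3 libraries kept separate 8. In SUM44PE against SUM44F, DESeq2 and the fit with no filter each called 2. Without a filter the median fold among MM134 variants over all genes rose by 0.39 (log2).

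The replicate numbers did not pair the libraries, since the correlation of same-numbered deviations had a median of -0.0118 in MM134 (0 of 30 over 0.1) and -0.00526 in SUM44 (3 of 18). With the replicate block, calls numbered 1 in MM134 LTED-A, 1 in LTED-B, 1 in LTED-E and 2 in SUM44 LTED-A.

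With 1 library left out, calls ranged from 0 to 2 in MM134 LTED-A, 1 to 2 in LTED-B and LTED-E, 2 to 3 in LTED-D, 2 to 4 in SUM44 LTED-A, 0 to 2 in SUM44PE against SUM44F and 2 to 4 in SUM44 LTED-A against LTED-B. Where this left 1 SUM44 LTED-A sample, it was assumed to vary like the other groups. With over 10 counts in place of over 3 as the limit, detected members numbered 7 in MM134 parental cells (12), 9 in LTED-B (15), 8 in LTED-D (14) and 9 in LTED-E (14). Members at a few counts, such as HOXD12 and most HOXA genes, are limited by depth.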
